A study of Homo sapiens with 12 samples.

Results

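The genes described here are the human globin genes of the alpha and beta clusters, which encode the protein chains of embryonic, fetal and adult haemoglobin. They were taken by symbol from the deposited table of 17518 genes, in which 9 of the 10 genes sought had a row: the beta-type genes HBE1, HBG1, HBG2, HBD and HBB, and the alpha-type genes HBZ, HBA2, HBA1 and HBQ1. HBM was not analysed here.

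RNA sequencing had been carried out on 12 libraries of MUTZ-1 and SKM-1, 2 human lines both labelled as marrow cells of myelodysplastic syndrome, a clonal blood disorder. Each line was represented by 3 control libraries, whose titles name a control hairpin and whose genotype label is WT, and by 3 libraries carrying shNUDT21, a short hairpin RNA against NUDT21. NUDT21 encodes a subunit of the cleavage factor that helps to choose where pre-mRNAs are cut and polyadenylated, and the study asked how its loss bears on the transformation of these cells. The series' design text gives MUTZ-1 for both lines in one place, so lines were taken from the sample titles. All 4 groups were grown in the same medium. The hairpin sequence, the promoter driving it, the time after its introduction and whether a line was 1 clone or a pool were not given in the sources used here. Nothing in the labels says that the 3 libraries of a group came from separate cultures, so p-values reflect the spread among these libraries alone, which may be technical.

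Haemoglobin pairs alpha-type with beta-type chains, and each cluster is used in order during development. In the alpha cluster HBZ is the embryonic gene and HBA1 and HBA2 are the fetal and adult genes. In the beta cluster HBE1 is embryonic, HBG1 and HBG2 are fetal, and HBD and HBB are adult, with HBD the minor adult gene. HBQ1 encodes the theta chain, for which no role in haemoglobin is established. Normal transcription of either cluster depends on a distant enhancer and on erythroid transcription factors such as GATA1 and KLF1, while the change from fetal to adult genes depends on repressors such as BCL11A and ZBTB7A.

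On the GRCh38 build, with gene positions from RefSeq, the beta-type genes lie on the minus strand of chromosome 11. HBB occupies chr11:5225464-5227071, HBD chr11:5232838-5234483, HBG1 chr11:5248269-5249857, HBG2 chr11:5253188-5254781 and HBE1 chr11:5268345-5269945. The alpha-type genes lie on the plus strand of chromosome 16, with HBZ at chr16:152644-154503, HBA2 at chr16:172876-173710, HBA1 at chr16:176680-177522 and HBQ1 at chr16:180459-181179. Reads had been counted over whole genes, so no value below refers to a single exon or intron.

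The RefSeq promoter table (GRCh38.p14) matched 1 of the 9 genes, HBD. Its 250 bases before the start, at chr11:5234484-5234733 on the minus strand, are shown because HBD made the largest step of the well-counted globins after knockdown in SKM-1.
HBD: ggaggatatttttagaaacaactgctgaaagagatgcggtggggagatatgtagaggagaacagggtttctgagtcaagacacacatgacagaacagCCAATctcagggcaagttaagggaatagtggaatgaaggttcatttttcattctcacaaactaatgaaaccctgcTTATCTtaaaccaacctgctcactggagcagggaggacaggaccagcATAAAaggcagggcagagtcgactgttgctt
Capitals mark matches to the motifs searched on both strands. These are CCAAT at bases -153 to -149, the letters AGATAA of a GATA motif read on the opposite strand at -78 to -73, and the TATA-like ATAAA at -31 to -27, counted back from the base before the start. CCAAT was present in 32% of the 35116 promoters of this length, AGATAA in 9.17% and ATAAA in 32.7%. The KLF-type motif CACCC had no match in this window, nor had the TATA box as TATAA. The GATA-type variant TGATAA was also without a match, as was the motif TGACCA. None of the matches overlapped another, and a match describes letters only.

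The libraries held 15843012 to 18426619 counts. NUDT21 was at 297 to 301 CPM (counts scaled to a common library size, with TMM factors) in MUTZ-1 control against 135 to 142 with shNUDT21, and at 322 to 344 in SKM-1 control against 129 to 132 with shNUDT21. Lineage markers differed between the lines. In MUTZ-1, all 9 B-lineage markers were above 1 CPM (summed 1661 to 2021 CPM over both groups) and 13 of 22 erythroid markers were under 1 CPM. The 22 erythroid markers summed to 797 to 818 CPM in MUTZ-1 control, where TFRC alone averaged 736 CPM. With shNUDT21 they summed to 379 to 386 CPM. In SKM-1 control, none of the 22 erythroid markers was under 1 CPM (summed 2332 to 2356 CPM, against 4398 to 4446 with shNUDT21). Much of the control sum came from SELENBP1 (mean 1034 CPM) and TFRC (424 CPM). With shNUDT21 SELENBP1 averaged 112 CPM and TFRC 1462 CPM. Of 13 myeloid markers, 8 were under 1 CPM in SKM-1 control, and FCN1 and S100A8 were at 0. Epithelial markers summed to 374 to 382 CPM in SKM-1 control and 764 to 789 with shNUDT21, against at most 1.11 in MUTZ-1. In MUTZ-1 control 9 of the 13 myeloid markers were likewise under 1 CPM. High erythroid and epithelial markers in SKM-1, and high B-lineage markers in MUTZ-1, with few myeloid ones, put the identity of both lines in doubt. It was not tested, and the names used for the libraries are those of the labels. In bulk libraries, fewer cells of a type and less RNA per cell cannot be told apart, which applies to every level and change below.

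In SKM-1, HBE1 and HBG2 were among the most abundant transcripts, and, as counted, the embryonic gene was the highest in each cluster. On the per-length FPKM scale (fragments scaled to gene length and library size, as deposited), control means were 1644 ± 24.9 (SD, n = 3) for HBE1, 560 ± 25.0 for HBG2 and 269 ± 18.9 for HBG1. HBZ followed at 168 ± 5.32, HBA2 at 49.0 ± 4.30 and HBA1 at 42.9 ± 5.68. HBQ1 was at 20.3 ± 2.14, HBD at 6.53 ± 0.437 and HBB at 0.0625 ± 0.0542. Every neighbouring pair in this order was separated in all libraries except HBA2 and HBA1, whose ranges overlapped. HBE1 ranked 18th or 19th of all genes by FPKM in the control libraries and 4th in each of the 3 shNUDT21 libraries, while HBG2 moved from between ranks 72 and 78 to rank 8. With shNUDT21 the order was the same down to HBA1, but HBD, at 39.2 ± 0.981 FPKM, then lay above HBQ1, at 31.7 ± 2.16.

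**Figure D1:**
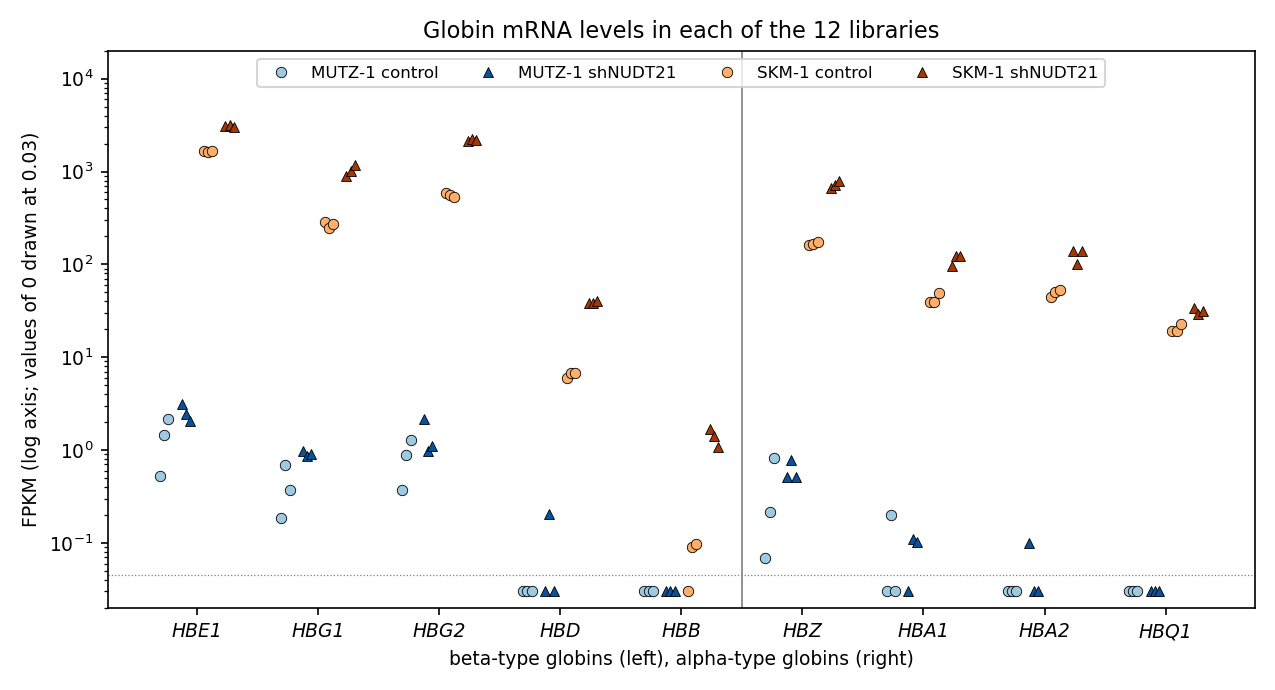
FPKM of each globin gene (log axis) in each of the 12 libraries, with values of 0 drawn at 0.03; circles are control and triangles shNUDT21 libraries. All SKM-1 libraries lie above all MUTZ-1 libraries except for HBB, which was at 0.0963 FPKM or less in SKM-1 control and at 0 in MUTZ-1.

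After knockdown in SKM-1, globin mRNA rose on both sides of the tetramer. All 9 genes passed the filter on low counts, but HBB did so only through the SKM-1 shNUDT21 libraries, where it was high, and is left out of the counts. Of the other 8 genes, all 8 rose at adjusted p under 0.05, where 42.1% of the 13625 genes tested rose, and 6 rose at least 2-fold, where 12.6% did. In all 8 the shNUDT21 libraries lay above every control library, which held for 42.3% of genes tested. Their median log2 fold change was 1.76, against 0.00 over all genes. Globin counts made up 0.168 to 0.174% of all counts in control and 0.439 to 0.469% with shNUDT21. Log2 fold changes and adjusted p-values here and below come from the quasi-likelihood test of edgeR, adjusted by Benjamini-Hochberg over all genes tested, and each ± beside a log2 fold change is a standard error.

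Embryonic HBE1 was at 983, 955 and 976 CPM in the 3 SKM-1 control libraries and at 1927, 1966 and 1892 CPM with shNUDT21. Both sets were tight and well apart, with no overlap. The log2 fold change was 0.99 ± 0.02 (adjusted p = 7.08e-65 by edgeR), close to 2-fold and the smallest among the beta-type genes.

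The fetal genes rose about 4-fold. HBG2, the more abundant copy, was at 324, 314 and 297 CPM in control and at 1245, 1310 and 1283 CPM with shNUDT21. Again the groups did not overlap, and the log2 fold change was 2.04 ± 0.03 (adjusted p = 1.64e-46 by edgeR). HBG1 was at 158, 138 and 154 CPM in control and at 522, 602 and 698 CPM with shNUDT21. Its shNUDT21 libraries were more spread than those of HBG2 (SD of 14.5% of the mean, against 2.55%), yet all lay above the controls, with a log2 fold change of 2.02 ± 0.10. Because HBG1 and HBG2 are near-identical, reads may be split or dropped between them, and their sum was tested as 1 gene. The sum rose by 2.03 ± 0.05 on the log2 scale (adjusted p = 1.43e-10 by edgeR). HBG1 gave 32.4% ± 1.78 (SD, n = 3) of the summed HBG FPKM in control and 32.1% ± 2.89 with shNUDT21, and these ranges overlapped (exact two-sided permutation p = 0.9).

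The adult beta-type genes were scarce in SKM-1, and HBD took the largest step of the well-counted globins. HBD was at 3.54, 4.02 and 3.96 CPM in control and at 23.9, 24.2 and 25.0 CPM with shNUDT21. The shNUDT21 libraries were nearly alike and all lay above the controls, with a log2 fold change of 2.66 ± 0.14 (adjusted p = 2.42e-48 by edgeR). HBB, the main adult gene, had 0, 1 and 1 counts in the control libraries and 17, 15 and 11 with shNUDT21. Since HBB passed the filter only through the shNUDT21 libraries, where it was high, its values are description only. The ratio of summed counts, corrected for library size, was 23.6 with an exact 95% interval of 6.16 to 201, which covers counting error only. Even with shNUDT21 HBB reached only 1.40 ± 0.303 FPKM, against 3083 ± 51.6 for HBE1 in the same libraries.

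Among alpha-type genes the embryonic HBZ rose most. It was at 123, 126 and 132 CPM in control and at 536, 574 and 628 CPM with shNUDT21. No library of one group came near the other, and the log2 fold change was 2.19 ± 0.07 (adjusted p = 7.84e-10 by edgeR). HBA1 was at 21.6, 21.7 and 27.1 CPM in control and at 56.1, 71.4 and 71.1 CPM with shNUDT21 (log2 fold change 1.50 ± 0.09). HBA2 was at 24.1, 27.5 and 28.7 CPM in control and at 79.6, 58.1 and 79.7 CPM with shNUDT21 (1.44 ± 0.14). In both genes all shNUDT21 libraries exceeded the controls, but they did not rank the libraries alike: shNUDT21 replicate 1 was lowest for HBA1 and replicate 2 was lowest for HBA2. The sum of these near-identical copies was less spread than either (SD of 7.89% of the mean with shNUDT21, against 13.2% for HBA1 and 17.2% for HBA2), and it rose by 1.46 ± 0.05 on the log2 scale (adjusted p = 9.83e-37 by edgeR). HBQ1 rose least, from 9.55, 9.55 and 11.4 CPM to 17.9, 15.7 and 16.8 CPM, again without overlap (0.72 ± 0.12, adjusted p = 2.09e-08 by edgeR).

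**Figure D2:**
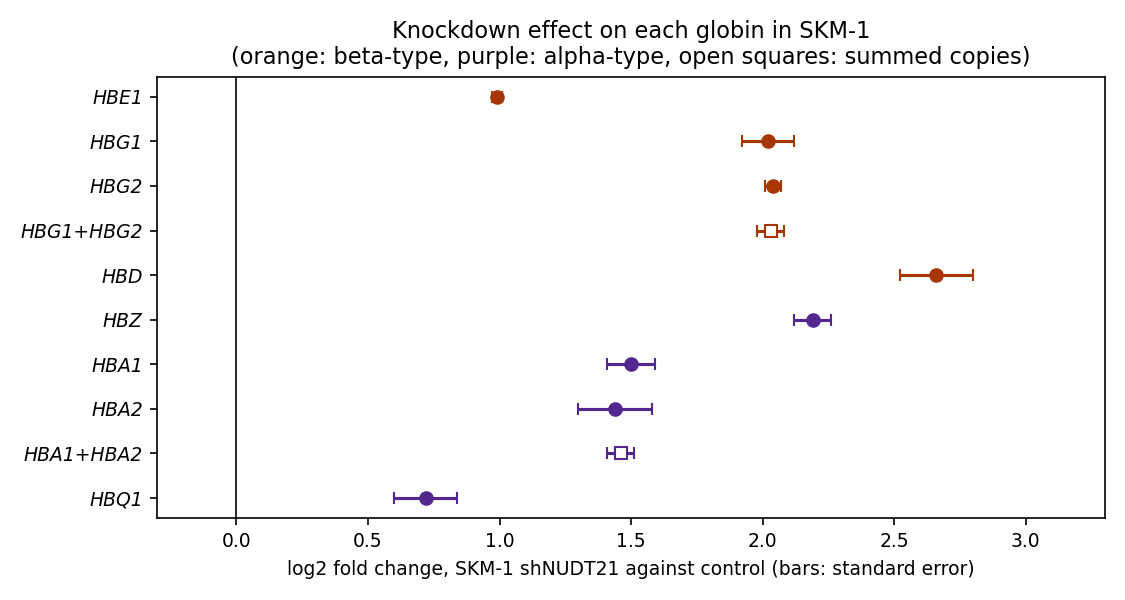
Log2 fold change (shNUDT21 against control, bars are standard errors) of each globin gene and of the summed copies in SKM-1. HBQ1 at 0.72 and HBE1 at 0.99 lie lowest and HBD at 2.66 highest; HBB is not drawn because its controls held 0, 1 and 1 counts.

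These unequal steps changed the mix of globins in SKM-1. On the FPKM scale, HBE1 made up 65.6, 66.4 and 66.9% of beta-type globin in control and 50.3, 48.9 and 47.0% with shNUDT21. The fetal pair made up 34.1, 33.3 and 32.8% in control and 49.0, 50.5 and 52.3% with shNUDT21. In control the embryonic gene therefore exceeded the fetal pair in every library, whereas with shNUDT21 the 2 were near parity and the fetal pair was ahead in replicates 2 and 3. The adult share, HBD with HBB, went from 0.266% ± 0.0252 to 0.641% ± 0.0148 (SD, n = 3) without overlap.

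The alpha-type mix shifted toward its embryonic gene. HBZ made up 61.3, 60.5 and 58.2% of alpha-type FPKM in control and 71.4, 73.9 and 72.8% with shNUDT21. HBA1 with HBA2 went from 32.8% ± 1.35 to 24.1% ± 0.977 and HBQ1 from 7.24% ± 0.367 to 3.20% ± 0.355 (SD, n = 3). The embryonic share was thus lower in the shNUDT21 libraries on the beta side and higher on the alpha side, with no overlap in either. Each of these shares gave an exact two-sided permutation p of 0.1, the smallest that 3 libraries against 3 allow, so none can reach 0.05. Adjusted over the 10 measures compared in SKM-1, the p was 0.125.

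**Figure D3:**
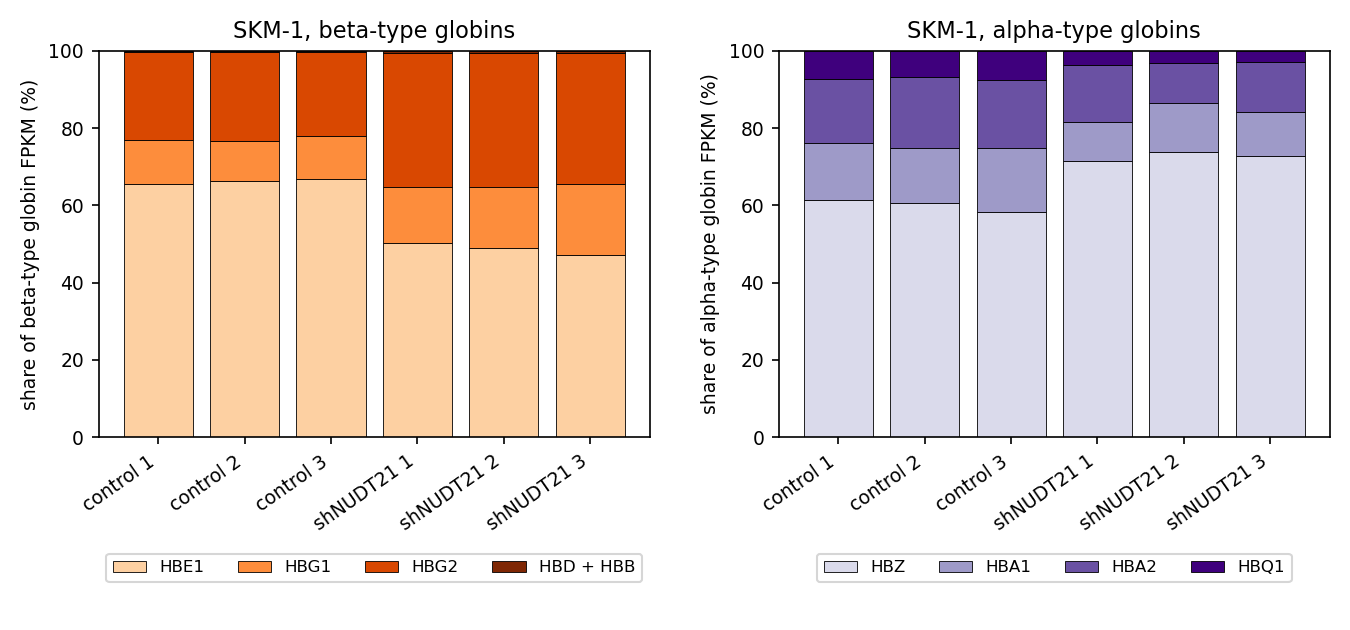
Share (%) of beta-type FPKM (left) and alpha-type FPKM (right) held by each gene in each SKM-1 library; the shares of a bar add up to the whole. HBE1 is at 65.6% or more in control and 50.3% or less with shNUDT21, and HBZ at 61.3% or less and 71.4% or more.

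As counted, alpha-type FPKM stayed far below beta-type FPKM in SKM-1. How multiply mapped reads were treated is not given, and summing near-identical copies would not restore dropped reads. HBM was not analysed. The ratio and the shares above therefore describe only the reads that were counted. The ratio of summed alpha-type to summed beta-type FPKM was 0.105, 0.113 and 0.121 in control and 0.153, 0.151 and 0.167 with shNUDT21. The ratio was higher in all 3 shNUDT21 libraries, by 0.476 on the log2 scale (-3.15 ± 0.104 against -2.67 ± 0.0813, SD, n = 3, exact two-sided permutation p = 0.1). Tested as summed counts, the alpha-type genes rose by 1.97 ± 0.06 and the beta-type genes by 1.42 ± 0.04 on the log2 scale (adjusted p = 1.59e-09 and 2.69e-10 by edgeR). AHSP, which encodes the chaperone of free alpha chains, was at 2.42, 2.23 and 3.85 CPM in control and at 4.07, 5.26 and 5.40 CPM with shNUDT21. It rose without overlap, by 0.80 ± 0.22 (adjusted p = 0.000489 by edgeR).

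In MUTZ-1 globin mRNA was barely detected. The 9 genes together had 13, 37 and 55 counts in the control libraries and 74, 54 and 50 with shNUDT21. HBB and HBQ1 had 0 counts in all 6 libraries, where 3 counts would amount to 0.170 to 0.191 CPM. With HBA1, HBA2 and HBD, at 2 counts or fewer in any library, they could hardly be called in either direction. HBE1, with 6, 16 and 25 counts in control and 34, 24 and 22 with shNUDT21, was the 1 gene of the 9 that rose (0.83 ± 0.25, adjusted p = 0.004 by edgeR), where 24.4% of the genes tested rose. Its groups overlapped, and the call was lost without control replicate 1 (0.46, adjusted p = 0.165 by edgeR), without shNUDT21 replicate 1 (0.67, adjusted p = 0.0553) or on the log2(FPKM + 0.1) scale (adjusted p = 0.0537 by limma). Of the genes called in MUTZ-1, 49.8% were higher, against 60.7 to 61.1% when library totals or FPKM replaced the TMM scaling.

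The fetal pair had 6, 16 and 18 counts in MUTZ-1 control and 32, 17 and 20 with shNUDT21. All shNUDT21 libraries lay above the controls on the CPM scale, which 26.9% of genes tested did, but the change did not pass the test (0.85 ± 0.62, adjusted p = 0.309 by edgeR). It did pass without SKM-1 shNUDT21 replicate 1, a library of the other line (0.88, adjusted p = 0.0093 by edgeR), and in a fit of MUTZ-1 alone (0.85, adjusted p = 0.0316 by edgeR). HBZ had 1, 3 and 12 counts in control and 7, 10 and 7 with shNUDT21, with overlap (0.64 ± 1.05, adjusted p = 0.674 by edgeR). The HBZ value rests on single libraries, being 0.17 without control replicate 1 and 2.02 without control replicate 3. HBA1, HBA2 and HBD had at most 2 counts in any MUTZ-1 library. The alpha to beta ratio was 0.0631, 0.136 and 0.212 in control and 0.0963, 0.202 and 0.151 with shNUDT21, and HBE1 held 51.2% ± 4.71 against 51.8% ± 2.36 of beta-type FPKM (SD, n = 3, exact two-sided permutation p = 0.8 for each). The groups overlapped in both measures, and at this depth no shift in the mix was detectable.

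Low counts in MUTZ-1 of genes abundant in SKM-1 were also looked at beyond the globins. The 6 globin genes with at least 20 CPM in both SKM-1 groups stood in MUTZ-1 at 0 to 0.240% of the SKM-1 level in control and at 0.0270 to 0.0895% with shNUDT21. For 18 other listed genes with at least 20 CPM in both SKM-1 groups and under 1 CPM in MUTZ-1, these values were 0 to 0.592% and 0.0151 to 1.25%. The ceiling of 1 CPM fixed low values for these 18 genes in advance, so the likeness to the globins is no evidence. It was not applied to the globins, of which HBE1 was at 1.61 CPM in MUTZ-1 with shNUDT21. Those 18 genes summed to 32, 30 and 68 counts in MUTZ-1 control and to 86, 97 and 86 with shNUDT21, all above the controls. The summed beta-type globins lay above the controls on the CPM scale but not in counts (42 or more, against 43 or fewer). What part this plays in the MUTZ-1 globin counts was not tested.

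The distance between the lines was therefore large. In the controls HBE1 was 1076-fold higher in SKM-1 than in MUTZ-1 by summed counts corrected for library size (exact 95% interval 809 to 1465), the HBG sum 601-fold (441 to 841) and HBZ 414-fold (254 to 724). HBD, HBA2 and HBQ1 had no count in the MUTZ-1 controls and were at least 66.7-fold, 465-fold and 176-fold higher in SKM-1, taking 3 counts over the group as the floor. HBB gives no fold in the controls, with 2 counts in SKM-1 and 0 in MUTZ-1. With shNUDT21 the ratio was 1511 (1117 to 2096) for HBG2 and 1197 (804 to 1868) for HBZ. Of the genes tested, 48.8% were lower in MUTZ-1 than in SKM-1 in the controls and 46.6% with shNUDT21. These comparisons use the same libraries as the knockdown comparisons.

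Whether the knockdown effect differed between the lines was tested directly, as the effect in MUTZ-1 minus that in SKM-1. HBB, HBD, HBA1, HBA2 and HBQ1 had at most 2 counts in any MUTZ-1 library and could hardly pass. The number of globins that passed therefore cannot be weighed against the share of all genes. HBG2 was the 1 gene of the 9 that passed (-1.34 ± 0.42, adjusted p = 0.00454 by edgeR), where 35.6% of genes passed in that direction and 72.0% in either. It did not pass without MUTZ-1 control replicate 3 (-0.83, adjusted p = 0.161 by edgeR) or on the log2(FPKM + 0.1) scale (adjusted p = 0.0542 by limma). For HBE1 the difference was -0.16 ± 0.27, with an approximate 95% interval of -0.69 to 0.38, and for the HBG sum -1.18 ± 0.67 (-2.50 to 0.14). These intervals use a normal approximation and can be narrower than the edgeR test implies. Both intervals span 0. HBZ differed by -1.54 ± 1.15 (adjusted p = 0.267 by edgeR), but passed in 6 of 19 alternatives, among them DESeq2 (-1.51, adjusted p = 0.00282) and the replicate block (-1.54, adjusted p = 0.00297 by edgeR), and was -0.14 without MUTZ-1 control replicate 3. The difference for HBG1 (-0.92 ± 1.94) passed on log2(FPKM + 1) with or without the filter (-1.47 in both).

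Known repressors of globin genes moved in both directions in SKM-1. Of 22 listed, 16 rose and 5 fell, where 42.1% of genes tested rose and 42.3% fell, with a median log2 fold change of 0.17 against 0.00 over all genes. BCL11A, the repressor of the fetal genes, was at 16, 16.2 and 17.1 CPM in control and at 0.940, 0.718 and 0.807 CPM with shNUDT21. It was lower in every shNUDT21 library and fell by 4.31 on the log2 scale (SE 0.15, adjusted p = 1.55e-71 by edgeR). ZBTB7A, which also represses the fetal genes, rose slightly (0.42 ± 0.06). KLF1, an activator of HBB that also promotes BCL11A transcription, was at 44.6, 44.8 and 45.8 CPM in control and at 175, 165 and 161 CPM with shNUDT21, a rise of 1.89 ± 0.05 without overlap. MYB, a regulator of progenitor growth that holds HBG down, rose by 2.31 ± 0.03, IKZF1 by 2.06 ± 0.04 and the NuRD subunit gene GATAD2A by 1.10 ± 0.03. NFIX fell by 1.52 (SE 0.06).

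Genes of the fetal programme mostly rose. Of 8 listed, 6 rose and 1 fell, where 42.1% and 42.3% of genes tested did (median 0.98, against 0.00 over all genes). LIN28B, the fetal RNA-binding protein that blocks let-7 maturation, was at 24.7, 24.8 and 26.6 CPM in control and at 125, 117 and 116 CPM with shNUDT21, a rise of 2.23 ± 0.05 without overlap. HIC2, a repressor of BCL11A, rose by 1.59 ± 0.03, ARID3A by 1.11 ± 0.04 and IGF2BP1 by 0.85 ± 0.03. HMGA2, a let-7 target, was the 1 gene that fell, by 1.04 (SE 0.12).

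The listed activators and their partner factors rose almost throughout. Of 20 listed, 18 rose and 1 fell, where 42.1% and 42.3% of genes tested did (median 0.86, against 0.00). GATA1, the main erythroid transcription factor, was at 62.2, 65.1 and 64.6 CPM in control and at 280, 268 and 263 CPM with shNUDT21 (2.08 ± 0.04). Its groups were far apart. LMO2, the bridge of the GATA1 complex, rose by 2.46 ± 0.08 and LYL1 by 1.94 ± 0.05. GFI1B, a transcriptional repressor kept in this list, rose by 1.83 ± 0.06. NFE2, which binds the beta-cluster enhancer, rose by 1.83 ± 0.04 and GATA2 by 1.70 ± 0.04. The GATA1 partner gene ZFPM1 rose by 1.58 ± 0.09 and SSBP3 by 1.36 ± 0.04.

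Heme genes rose with the globins. Of 15 tested in the list of heme synthesis and globin partners, 12 rose and none fell, where 42.1% and 42.3% of genes tested did (median 0.48, against 0.00). ALAS2, the erythroid first enzyme of heme synthesis, was at 48.7, 51.8 and 50.7 CPM in control and at 226, 236 and 218 CPM with shNUDT21, a rise of 2.17 ± 0.04 without overlap. UROD rose by 1.35 ± 0.03, BLVRB by 1.16 ± 0.03 and FECH, which inserts the iron, by 1.11 ± 0.04. Of 22 erythroid markers, 19 rose and 1, SELENBP1, fell (median 1.69). Markers of other cells moved too: 5 of 6 myeloid markers tested and 4 of 4 epithelial markers tested rose, against the same 42.1% of genes tested. Their part in the globin result was not tested.

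In MUTZ-1 GATA1 and ALAS2 were near absent. KLF1, GATA2, NFE2, NFIX, LMO2, HMGA2 and AHSP were likewise under 1 CPM in both groups. Better-counted regulators changed in both directions or were not called, such as HIC2 (0.02 ± 0.05), LYL1 (-0.01 ± 0.09) and ZBTB7A (-0.12 ± 0.06). GATA1 had 1, 0 and 2 counts in control and 3, 3 and 1 with shNUDT21, and ALAS2 had at most 4 counts in any library. BCL11A was at 55.2, 50.8 and 51.8 CPM in control and at 39.8, 42.8 and 39.6 CPM with shNUDT21, without overlap, and fell by 0.37 (SE 0.06). LIN28B fell by 0.29 (SE 0.04), opposite to SKM-1, while MYB rose by 0.33 ± 0.03. GFI1B rose by 1.69 ± 0.15 from a low level, 1.92, 2.69 and 1.36 CPM against 6.39, 7.19 and 5.71. Of the 20 activators and partner factors 4 rose and 6 fell, and of the 22 repressors 6 rose and 9 fell, where 24.4% and 24.6% of genes tested did. KLF1, among the 6 repressors that rose, had only 3 counts over the MUTZ-1 controls and 11 with shNUDT21.

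**Figure D4:**
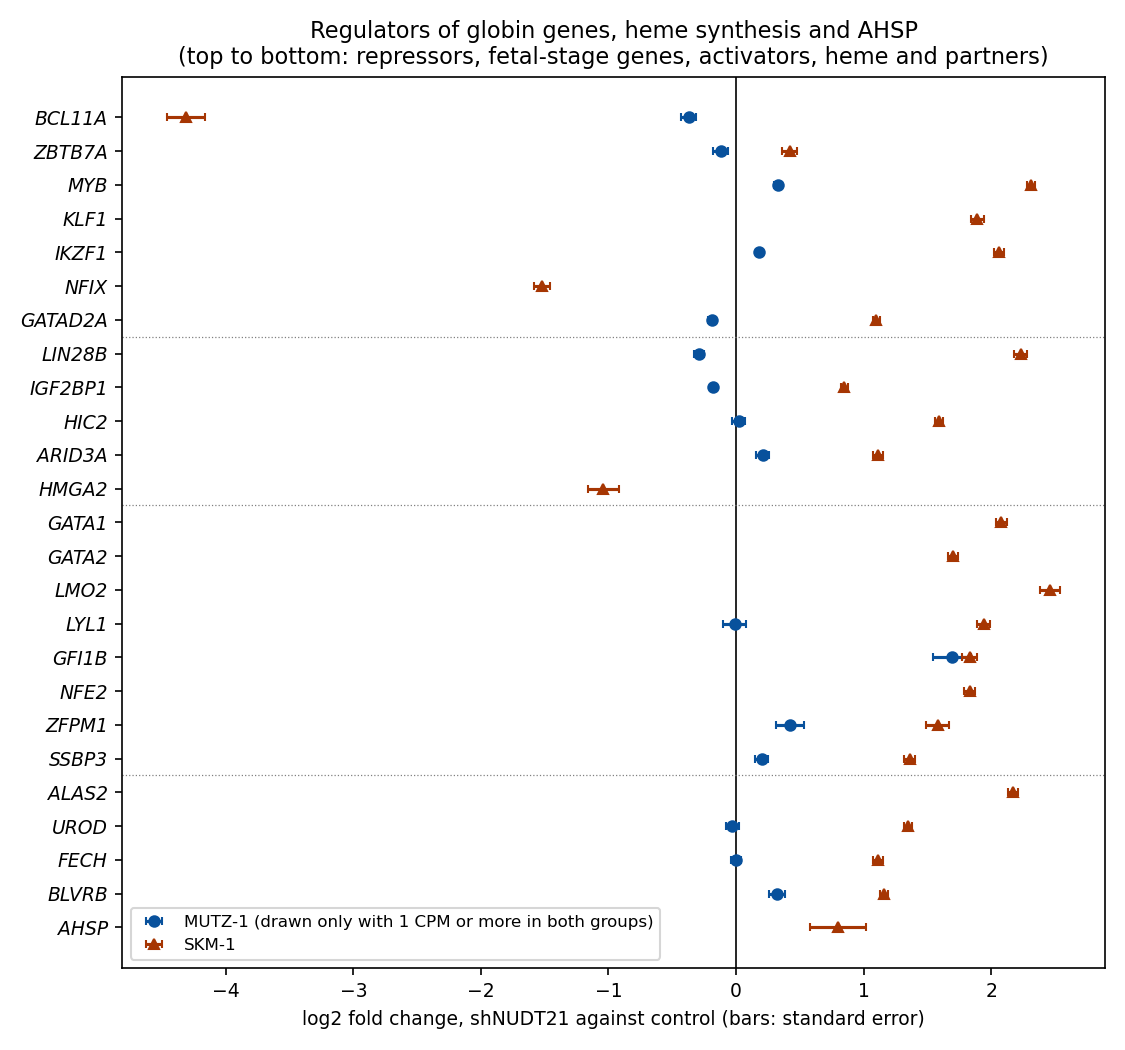
Log2 fold change after knockdown (bars are standard errors) of named regulators of globin genes, heme genes and AHSP in SKM-1 (triangles) and MUTZ-1 (circles, drawn only where both groups held 1 CPM or more). BCL11A at -4.31 in SKM-1 lies alone on the left, while GATA1, MYB, LIN28B and ALAS2 lie beyond 2 on the right.

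Genes beside the clusters did not rise as a block. Of 10 alpha-cluster neighbours tested in SKM-1, 3 rose and 6 fell, where 42.1% and 42.3% of genes tested did (median -0.21, against 0.00). NPRL3, whose introns hold the alpha-globin enhancers, was at 116, 114 and 109 CPM in control and at 93.9, 96.8 and 96.1 CPM with shNUDT21, lower in every library, and fell by 0.24 (SE 0.04). Of 8 beta-cluster neighbours tested, 3 rose and 2 fell, near the share of genes that rose overall. The 3 that rose were named after their values were seen. They were OR51B4 (1.90 ± 0.09) and OR51B5 (1.39 ± 0.06), odorant receptor genes on the enhancer side of HBE1, and TRIM6 (1.64 ± 0.20). In GENCODE v29, OR51B5 shares 84 exon bases with HBE1 and 37 with HBG2 on the same strand, and HBE1 and HBG2 share 37. Same-strand genes without a row in the count table also share exon bases with globins in GENCODE v29. AC104389.4 shares 781 with HBE1 and 298 with HBG2. AC104389.5 shares 433 with HBG2 and 218 with HBG1, and HBBP1 shares 88 with HBD. How reads there were assigned is not given in the sources used here. OR51B5 values are therefore uncertain, and the levels and shares of HBE1, HBG1, HBG2 and HBD may be affected too. Within 1 Mb of the clusters, counting genes that averaged 5 CPM or more, the median log2 fold change was 0.16 over 32 genes at the alpha cluster and -0.03 over 7 genes at the beta cluster, globins left out. By chromosome, SKM-1 medians ran from -1.07 on chromosome 13 to 0.54 on chromosome 21, with 0.26 on chromosome 11 and -0.07 on chromosome 16, against -0.04 to 0.03 in MUTZ-1. Whether the SKM-1 groups also differed in clone or in chromosome copies was not tested. Every change given here as following knockdown is a difference between shNUDT21 and control libraries, whatever else differed between them.

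**Figure D5:**
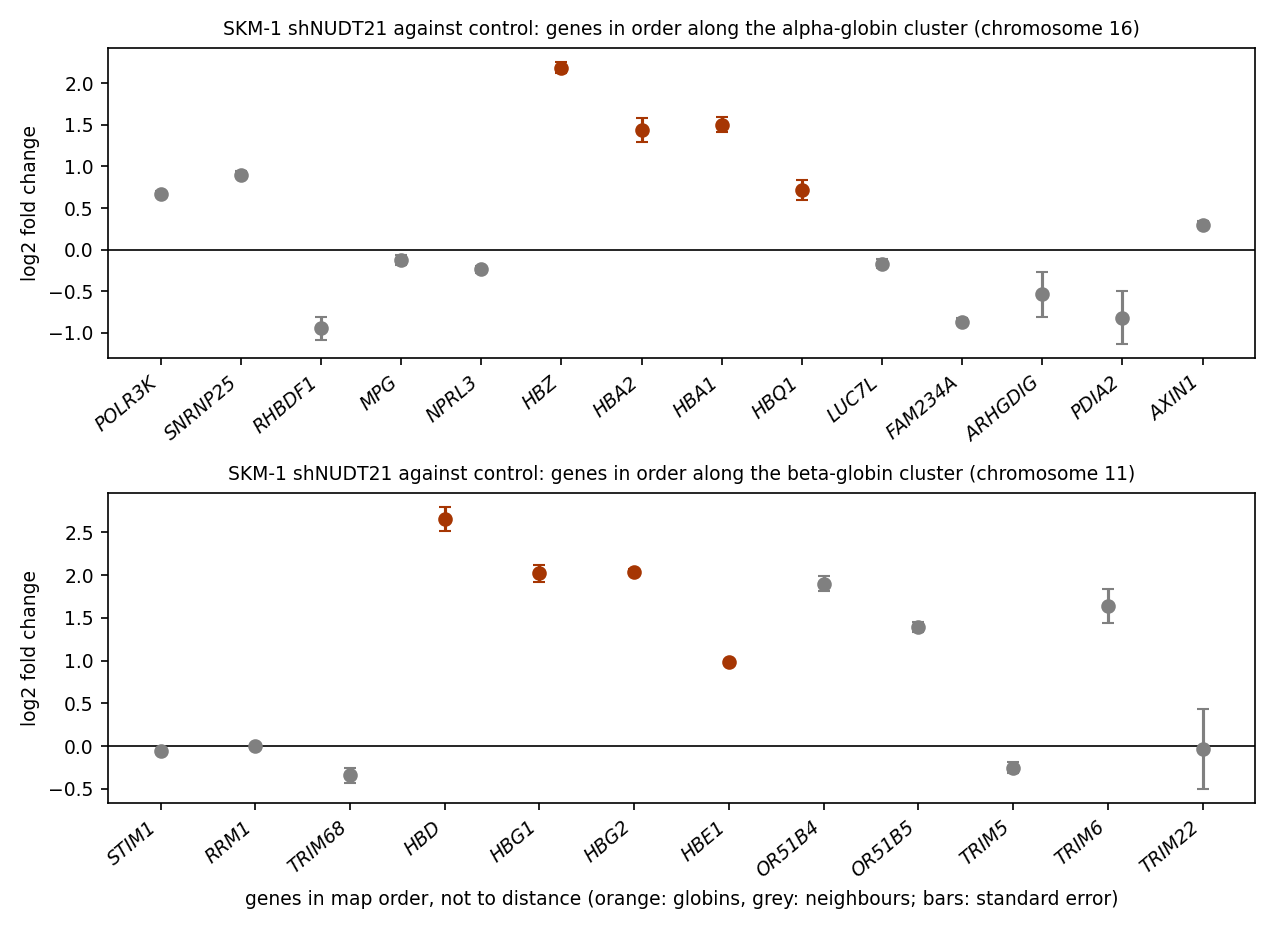
Log2 fold change (shNUDT21 against control in SKM-1, bars are standard errors) of globin genes (orange) and tested neighbours (grey), in map order with equal spacing; HBB is not drawn. Globins lie above 0 in both clusters. Alpha-cluster neighbours lie at 0.90 or less, and the highest of them, SNRNP25 at 0.90, lies above the globin HBQ1 at 0.72. OR51B4, OR51B5 and TRIM6 are the raised neighbours of the beta cluster.

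The genes with the most similar profile were sought among 10886 non-globin genes, by Pearson correlation of log2(CPM + 0.5) with the summed globins over the 12 libraries. The points share lines and treatments, so this describes the 4 group levels more than single libraries. PRAME, a cancer-testis antigen gene, came first (r = 0.9993), with mean CPM of 0.870 and 2.02 in MUTZ-1 control and shNUDT21 and of 721 and 2233 in SKM-1. It was followed by CTCFL, RNF24, SLC2A3, TENM1, HADHA, RHAG, CPED1, SCG3 and PRKAR2A, down to r = 0.9976. RHAG, an erythrocyte membrane protein gene, was the 1 erythroid marker among them, at 184 CPM in SKM-1 control and 665 CPM with shNUDT21. HADHA and RNF24 reached the same likeness with small differences, HADHA going from 220 and 232 CPM in MUTZ-1 to 438 and 480 CPM in SKM-1.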

How the data were processed

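Whole-gene read counts of 12 libraries (4 groups of 3) were deposited by the authors as raw counts, beside a table of deposited FPKM values normalized by the authors to gene length and library size. Libraries came from total RNA with a stranded mRNA kit, per the labels' protocols. The submitters' processing notes name fastp, HISAT2 and HTSeq and the GRCh38 build, while versions, annotation, strand setting and treatment of multiply mapped reads were not given in the sources used here.

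The globin genes and all gene lists were chosen with earlier results of these data known. Groups were taken from the sample titles. Counts were fitted with edgeR 4.0.16 in R 4.3.3 (TMM scaling, filterByExpr, robust quasi-likelihood test, 1 mean per group over all 12 libraries). The filter kept 13625 of 17518 genes, and p-values were Benjamini-Hochberg adjusted over all of them, with a threshold of 0.05. HBG1 with HBG2, HBA1 with HBA2, and all alpha-type and all beta-type rows were also fitted as sums. Residual degrees of freedom were 8 and the biological coefficient of variation 2.44%. Levels between genes, stage shares and the alpha to beta ratio used FPKM, with exact permutation tests over libraries (scipy 1.17.1). Ratios of low counts carry exact 95% binomial intervals, with a floor of 3 counts, and cover counting error only.

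Globins were named in full. Other genes were named when, in the knockdown comparison of either line, they changed at least 2-fold without overlap and had a mean of 5 CPM, at most 8 per list, with 9 set genes always named and the 10 genes most like the summed globins. One gene of the heme list is not reported here and was left out of its counts. The fit was tested on simulated data. Replicates differed by more than sampling noise (chi-square per degree of freedom 1.66 to 2.25), so none was merged. Same-numbered libraries of the 2 groups of a line did not deviate together (correlations -0.0702 to 0.0229), and differently numbered ones gave -0.0624 to 0.0951. With 3 libraries per group this check cannot exclude pairing, and the main fit assumed none. DESeq2 1.42.0 and limma 3.58.1 on log2(FPKM + 1) and log2(FPKM + 0.1) served as alternatives, with library totals, no filter, other designs and each library left out.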

Additional observations from a re-analysis of the deposited data

Results flagged for a closer look

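The knockdown effect differed between the 2 lines, by the test of the difference itself, for 1 globin gene and for 17 of the named regulators and heme genes. Values are the log2 effect in MUTZ-1 minus that in SKM-1 with its standard error, from edgeR's quasi-likelihood test. Of all genes tested 72.0% passed it, and neither share given here was above that. Many of the globins and regulators that did not pass had few counts in MUTZ-1. For the fetal gene HBG2 the difference was -1.34 ± 0.42 (adjusted p = 0.00454 by edgeR), and it rests on few MUTZ-1 counts. For BCL11A, which fell in both lines and further in SKM-1, it was 3.94 ± 0.18, and for NFIX, which had at most 8 counts in any MUTZ-1 library, 1.95 ± 0.51. Among the other repressors it was MYB -1.98 ± 0.05, IKZF1 -1.88 ± 0.04, GATAD2A -1.29 ± 0.04 and ZBTB7A -0.54 ± 0.08. Among genes of the fetal programme it was LIN28B -2.52 ± 0.06, HIC2 -1.57 ± 0.06, ARID3A -0.89 ± 0.06 and IGF2BP1 -1.03 ± 0.03. Among activators and partner factors it was LMO2 -2.45 ± 0.46, LYL1 -1.95 ± 0.11, ZFPM1 -1.16 ± 0.15 and SSBP3 -1.16 ± 0.06, where LMO2 had at most 16 counts in any MUTZ-1 library. Among heme genes it was UROD -1.37 ± 0.05, BLVRB -0.83 ± 0.07 and FECH -1.11 ± 0.06.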

How the results depend on the processing

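Each value was recomputed with other scalings, filters, units and designs and with each of the 12 libraries left out. In SKM-1 all 260 alternative values of the 13 globin results and all 520 of the 26 other named genes kept their direction and call, as did all 160 values of the globins between the lines in the controls and all 160 with shNUDT21. The 13 globin results in SKM-1 include HBB, which gave 20 of the 260 values. Since HBB passed the filter only through the shNUDT21 libraries, its values are description only here too. In MUTZ-1 calls varied, and the cause was not tested. The HBG1 and HBG2 sum passed the threshold with DESeq2 (0.88), on log2(FPKM + 1) with or without the filter (0.58 in both), on log2(FPKM + 0.1) (0.93) in a fit of MUTZ-1 alone (0.85) and without SKM-1 shNUDT21 replicate 1 (0.88), and ranged from 0.52 to 1.15 with 1 library left out. The beta-type sum did not pass in the main fit (0.86 ± 0.38, adjusted p = 0.0907 by edgeR), but did in 9 of 20 alternatives. It passed with DESeq2 (0.88), without the filter (0.86) and on log2(FPKM + 1) with or without the filter (0.78 in both). It also passed on log2(FPKM + 0.1) (1.03), in a fit of MUTZ-1 alone (0.86) and without MUTZ-1 control replicate 1 or 3 (0.51 and 1.28). These last 2 values are the ends of the range with 1 library left out. HBG2 passed without MUTZ-1 control replicate 3 (1.18), and HBG1 with DESeq2 (1.15) and on the 3 FPKM scales (0.46, 0.46 and 1.11).

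For the difference between lines, the HBG1 and HBG2 sum passed with DESeq2 (-1.16) and on log2(FPKM + 1) with or without the filter (-1.37 in both) and without SKM-1 shNUDT21 replicate 1 (-1.18) or 3 (-1.15), and ranged from -1.49 to -0.86 with 1 library left out. In the main fit the alpha-type sum (-1.33 ± 1.14, adjusted p = 0.335 by edgeR) and the beta-type sum (-0.55 ± 0.40, adjusted p = 0.244 by edgeR) did not pass. The alpha-type sum passed with DESeq2 (-1.29) and on log2(FPKM + 1) with or without the filter (-1.54 in both) and without SKM-1 shNUDT21 replicate 3 (-1.27), ranging from -1.79 to -0.31. The beta-type sum passed without the filter (-0.56) and without MUTZ-1 control replicate 1 (-0.89), ranging from -0.89 to -0.12. HBZ passed with DESeq2 (-1.51), on log2(FPKM + 1) with or without the filter (-1.83 in both), with the replicate block (-1.54) and without SKM-1 shNUDT21 replicate 1 (-1.55) or 3 (-1.49), ranging from -1.99 to -0.14, and HBG1 on log2(FPKM + 1) with or without the filter (-1.47 in both). HBE1, not called, changed sign on log2(FPKM + 0.1) (0.10) and without MUTZ-1 control replicate 3 (0.39) or MUTZ-1 shNUDT21 replicate 3 (0.03), ranging from -0.51 to 0.39.

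With raw counts in place of FPKM, the SKM-1 change was 0.0606 in the alpha to beta ratio, 11 points in the HBZ share and -3.12 points in the HBQ1 share. With HBQ1 and HBD left out, it was 0.0198 points in the adult share, 10.4 in the HBZ share and -10.4 in the HBA share. With the replicate number as a block, which the pairing check does not call for, the beta-type sum passed in MUTZ-1 (0.86) and the alpha-type sum passed for the difference between lines (-1.32), while the HBG sum in SKM-1 stayed at 2.03. Scaling by library totals moved the median of all genes from 0.04 to 0.17 for the difference between lines and from -0.11 to -0.24 between controls. At these depths a globin under 0.170 to 0.191 CPM in a MUTZ-1 library is below 3 counts.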
